A study of Mus musculus with 18 samples.

Results

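The Fc gamma receptor genes are described here in macrophages stimulated with LPS or TNF. They were chosen by name as 5 genes of the 45706 in the deposited count table: the receptors Fcgr1, Fcgr2b, Fcgr3 and Fcgr4, and Fcer1g, which encodes the signalling chain shared by the activating receptors. The cells were bone marrow-derived macrophages of the C57BL/6 strain, with an age of 12 days in the labels, grown for 6 days in medium with 30% L929-conditioned medium, and their poly(A) RNA was sequenced. The genotypes were wild-type and RelA-TA-KI, which carries a knock-in allele of the NF-kB subunit RelA. Each genotype was sampled unstimulated and 0.5, 1, 3 and 8 h after LPS (100 ng/ml), a bacterial product sensed by TLR4, or after TNF (10 ng/ml), an inflammatory cytokine. This gave 9 conditions and 18 libraries, with 1 library per genotype and condition. There were no replicates within a condition, and no separate animals or cultures were named. A p-value therefore measured how alike the genotype pairs behaved across these libraries and not the spread between mice, and the genotype cannot be told apart from the culture it was grown in.

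Fc gamma receptors bind the constant part of IgG and couple antibody-coated particles to phagocytosis, the oxidative burst and cytokine release. Fcgr1 encodes the high-affinity receptor, which can hold monomeric IgG. Fcgr3 and Fcgr4 encode activating receptors of lower affinity that respond mainly to immune complexes. These 3 receptors signal through the ITAM motif of the common gamma chain, the product of Fcer1g, which they also need to reach the cell surface. Fcgr2b encodes the inhibitory receptor of the family, whose ITIM motif recruits the phosphatase SHIP1. Interferons are classical inducers of Fcgr1 in macrophages.

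The members lie at 2 loci (mm10 coordinates of the deposited table). Fcgr1 (ENSMUSG00000015947.8) is on the minus strand of chromosome 3, from 96282909 to 96293969. Fcgr2b (ENSMUSG00000026656.13, chromosome 1, 170958617 to 170976547, minus strand), Fcgr4 (ENSMUSG00000059089.4, 171018920 to 171029761, plus strand) and Fcgr3 (ENSMUSG00000059498.11, 171051174 to 171064935, minus strand) follow each other within 106.3 kilobases. Fcer1g (ENSMUSG00000058715.9, 171229572 to 171234365, minus strand) is farther along the same chromosome, and the interval from Fcgr2b to Fcer1g spans 275.7 kilobases.

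The regions upstream of Fcgr1 and Fcgr4 are shown because these were the members that changed most with stimulus and with genotype. Each is the 250 bases before the RefSeq transcription start (GRCm38.p6, the assembly also called mm10), written 5′ to 3′ on the gene's own strand. The capitals mark matches to the GAS element TTCNNNGAA, which reads the same on both strands and is found at interferon-responsive genes (in Fcgr1), or to an interferon regulatory factor element, 2 copies of GAAA with any 2 bases between them, searched on both strands (in Fcgr4).
Fcgr1 (chr3:96293970-96294219, minus strand): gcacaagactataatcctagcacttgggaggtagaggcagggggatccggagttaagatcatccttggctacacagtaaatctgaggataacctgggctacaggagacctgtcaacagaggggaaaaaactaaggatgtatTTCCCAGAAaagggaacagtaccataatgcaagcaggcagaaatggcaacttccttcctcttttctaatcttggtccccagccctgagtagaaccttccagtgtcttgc
Fcgr4 (chr1:171018676-171018925, plus strand): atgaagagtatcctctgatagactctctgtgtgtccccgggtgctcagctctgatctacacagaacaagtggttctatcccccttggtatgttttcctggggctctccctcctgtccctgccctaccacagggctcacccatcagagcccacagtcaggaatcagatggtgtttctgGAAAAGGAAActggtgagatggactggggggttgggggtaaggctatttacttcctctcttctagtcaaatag
The GAS match in Fcgr1 lies 109 to 101 bases before the start, and the match in Fcgr4 lies 73 to 64 bases before it. A GAS match was present in 7.02% of the 32851 RefSeq windows of this length and the interferon regulatory factor element in 2.98%. Neither was found in the windows of Fcgr2b, Fcgr3 or Fcer1g. The core GAGGAA bound by PU.1, a macrophage lineage factor (23.3% of windows, both strands), was present in the windows of Fcgr1, Fcgr3 and Fcgr4. A match to the NF-kB consensus (7.25% of windows) was present in those of Fcgr3 and Fcgr4. The motifs did not overlap one another in these windows, and a match describes letters, not binding.

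Library totals ranged from 4663650 to 6721917 counts, and the wild-type libraries averaged 5608518 against 5187884 for the knock-in. The members were well covered, with 167 to 10398 counts per library. The lowest count, for Fcgr1 in wild-type cells at 3 h of TNF, had an exact 95% Poisson interval of 143 to 194, which covers counting error only. All 5 members passed the filter on low counts, which left 11308 genes. Macrophage markers (Adgre1, Csf1r, Itgam, Cd68, Mertk, Lyz2 and Cd14) were present in all 18 libraries, and their summed level ranged from 9314 to 13045 CPM (counts scaled to the size of each library) in wild-type and from 8931 to 12608 CPM in knock-in cells. Among markers of other cells that carry Fc receptors, 2 of 5 for NK cells (Ncr1 and Gzma) and 4 of 7 for mast cells and basophils (Fcer1a, Cma1, Mcpt4 and Tpsb2) were at 0 in every library. The NK list summed to at most 1.03 CPM. The B cell list summed to 1.70 to 4.56 CPM in wild-type and 1.46 to 4.72 CPM in knock-in libraries, and 1 of its 5 genes, Cd79b, passed the filter. The mast cell list summed to 1.94 to 10.1 CPM in wild-type and 0.886 to 32.5 CPM in knock-in libraries, most of it from Kit, with 3 to 164 counts per library. The neutrophil list was more abundant, at 62.4 to 276 CPM over all libraries. In such bulk libraries, fewer cells of a type and less RNA per cell cannot be told apart.

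Reads of Fcgr2b and Fcgr3 are partly interchangeable. Of the distinct 50-base sequences in the GENCODE M21 transcripts of Fcgr3, 9.58% (166 of 1733) also occur in Fcgr2b, and 6.95% of those of Fcgr2b occur in another gene. No source used here says how such reads were counted, and both genes are less certain than Fcgr1, Fcgr4 and Fcer1g, which shared none. Of the exon bases of Fcgr2b, 2.68% also lie in the gene model Gm38204.

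Before stimulation the common chain was the most abundant member. Fcgr1 was the least abundant per kilobase of exon, but in CPM Fcgr4 was. Fcgr4 stood at 45.5 against 47.3 CPM for Fcgr1 in wild-type and at 78.3 against 87.1 CPM in knock-in cells. On the scale of CPM per kilobase of annotated exon, unstimulated wild-type cells held 575 for Fcer1g, 259 for Fcgr3, 42.8 for Fcgr2b, 36.2 for Fcgr4 and 18.3 for Fcgr1. Knock-in cells held 597, 284, 53.6, 62.4 and 33.7 for the same genes, so Fcgr2b and Fcgr4 stood in the opposite order in the 2 genotypes and are not ordered here. The annotated exons of Fcgr2b sum to 5790 bases over all its transcripts, which lowers its value per length. Per kilobase the order was different at 8 h of LPS. Fcgr1 stood next to Fcer1g in both genotypes, at 621 against 1507 in wild-type and 1186 against 1648 in knock-in cells. Fcgr4 then stood at 405 and 813, Fcgr3 at 325 and 535 and Fcgr2b at 73.5 and 70.4. In CPM Fcgr1 exceeded Fcer1g at that time, at 1608 against 1317 in wild-type and 3070 against 1440 in knock-in cells.

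**Figure D1:**
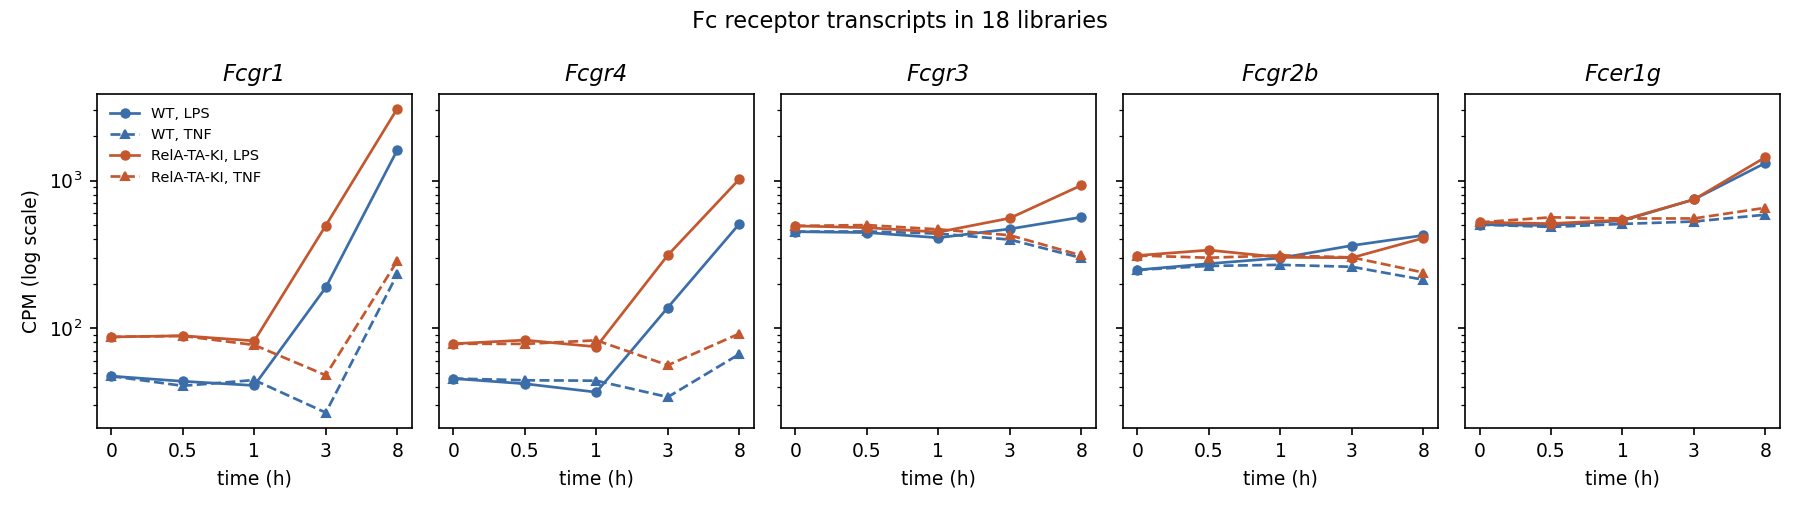
CPM (log axis, scaled with TMM factors) of each member against time after LPS (circles, solid lines) or TNF (triangles, dashed lines), 1 library per point, with the unstimulated library of each genotype at 0 h. Fcgr1 and Fcgr4 reached 3070 and 1022 CPM in knock-in cells at 8 h of LPS, and the knock-in curve lies above the wild-type curve for both genes at every point.

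LPS raised Fcgr1 and Fcgr4 late and steeply. In wild-type cells Fcgr1 stood at 47.3 CPM before stimulation and at 43.6, 40.8, 189 and 1608 CPM after 0.5, 1, 3 and 8 h. In knock-in cells it stood at 87.1 CPM and then at 88.7, 81.96, 496 and 3070 CPM. Both genotypes were flat for the first hour, high at 3 h and highest at 8 h, with no overlap between the early and the late libraries. With both genotypes together Fcgr1 rose by 2.27 ± 0.19 (log2 fold change ± SE) at 3 h and by 5.11 ± 0.21 at 8 h (edgeR, adjusted p = 3.47e-10 at 8 h). The rise at 8 h was 34.03-fold in wild-type and 35.2-fold in knock-in cells, or 18.5-fold and 17.3-fold with library totals.

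Fcgr4 moved in step with it. Wild-type cells held 45.5 CPM before LPS and 41.96, 36.8, 138 and 508 CPM after 0.5, 1, 3 and 8 h. Knock-in cells held 78.3 CPM and then 82.9, 74.7, 312 and 1022 CPM. The change was 1.81 ± 0.14 at 3 h and 3.59 ± 0.14 at 8 h (edgeR, adjusted p = 1.44e-10 at 8 h), 11.2-fold in wild-type and 13.04-fold in knock-in cells (6.07-fold and 6.39-fold with library totals). Across the 18 libraries the log2 CPM of Fcgr1 and Fcgr4 had a Pearson correlation of 0.96, given as a description since the libraries share their time courses.

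The common chain rose less, and the remaining receptors changed little. Fcer1g stood at 503 CPM before stimulation and at 497, 535, 745 and 1317 CPM along the LPS course of wild-type cells. In knock-in cells it stood at 521 and then at 511, 541, 745 and 1440 CPM. Fcer1g, already the most abundant member, changed by 0.54 ± 0.08 at 3 h (adjusted p = 9.25e-05) and by 1.43 ± 0.08 at 8 h (adjusted p = 3.60e-09, edgeR). Scaled by library totals instead of TMM factors, it was at 0.01 at 3 h, not called, and at 0.47 at 8 h, called. Fcgr3, the low-affinity activating receptor, went between 0 and 8 h from 450.4 to 565 CPM in wild-type and from 493 to 929 CPM in the knock-in. Fcgr2b, the inhibitory receptor, went from 248 to 425 CPM in wild-type and from 311 to 408 CPM in knock-in cells. At 8 h the fit gave 0.64 ± 0.13 for Fcgr3 and 0.59 ± 0.13 for Fcgr2b, both called higher, but both turned and were called lower with library totals (-0.32 and -0.37). With library totals the median of all tested genes stood at -0.99 at 8 h, against -0.04 with TMM factors, so both receptors stood above the median gene under either scaling and their absolute direction cannot be told.

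No member was called at 0.5 or 1 h of LPS (edgeR, 0 of 5 also at an unadjusted p under 0.05, and 0 with DESeq2 and limma-voom), where 0.920% and 6.84% of all tested genes were called. At 3 h 3 of 5 members were called higher, against 24.8% of all genes, and at 8 h 5 of 5, against 33.8%. The percentages called in either direction were 47.6% and 67.7%. Over the 4 times together all 5 members were called, against 72.2%. The median change of the 5 members at 8 h was 1.43. The summed levels of neutrophil, dendritic cell, stromal and macrophage markers, scaled with TMM factors, were also higher at 8 h of LPS. Kit, of the mast cell list, and Cd79b, of the B cell list, were called lower. From 0 to 8 h the TMM factor went from 1.20 to 0.654 in wild-type and from 1.16 to 0.568 in knock-in libraries. With library totals the neutrophil, stromal and macrophage sums were therefore lower at 8 h in both genotypes, and of these lists only the dendritic cell sum was higher. The sums below are scaled with TMM factors. Between 0 and 8 h the neutrophil list went from 129 to 221 CPM in wild-type and from 62.4 to 123 CPM in the knock-in (2 of 7 tested members called higher, none lower). The dendritic cell list went from 5.81 to 23.3 CPM and from 3.05 to 25.4 CPM (1 of 4 called higher, none lower). The stromal list went from 130 to 189 CPM and from 46.6 to 61.4 CPM (1 of 3 called higher, none lower). The macrophage list went from 9314 to 13045 CPM and from 8931 to 12608 CPM (4 of 7 called higher, 1 lower). Their part in the rise of the Fc receptor genes was not tested.

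**Figure D2:**
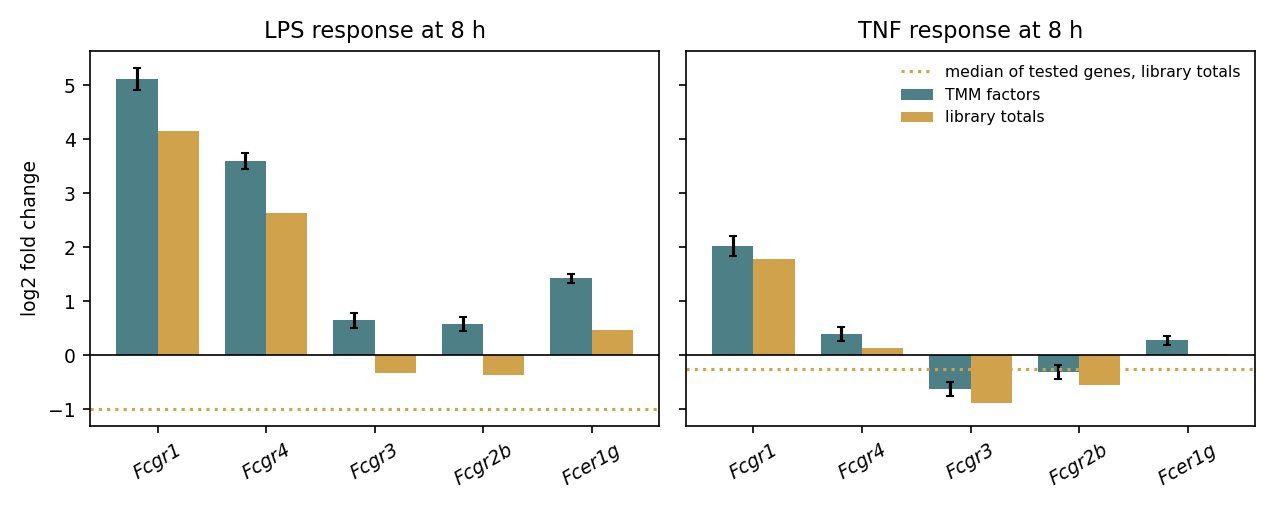
Log2 fold change of each member at 8 h of LPS (left) and of TNF (right) against unstimulated cells, both genotypes together, with TMM factors (bars with SE) or library totals (bars without error), and the median of all tested genes under library totals as a dotted line. After LPS Fcgr2b and Fcgr3 are above 0 with TMM factors (0.59 and 0.64) and below 0 with library totals (-0.37 and -0.32), while Fcgr1 and Fcgr4 stay above 2.6 under both.

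After TNF, Fcgr1 and Fcgr4 were low at 3 h and higher at 8 h, while Fcgr3 and Fcgr2b were lowest at 8 h. Fcgr1 first fell and then rose: wild-type cells held 40.6 and 44.5 CPM at 0.5 and 1 h, 26.7 CPM at 3 h and 231 CPM at 8 h. Knock-in cells held 88.5, 76.8, 47.9 and 285 CPM at the same times. In each genotype the 3 h library was the lowest of its TNF course and the 8 h library the highest. Fcgr1 fell by 0.84 on the log2 scale at 3 h (SE 0.19, adjusted p = 0.0127) and rose by 2.03 ± 0.19 at 8 h (adjusted p = 4.03e-06, edgeR).

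Fcgr4 showed the dip with only a small later rise. It stood at 44.3, 44.01, 34.1 and 66.6 CPM in wild-type and at 78.1, 82.7, 56.1 and 91.7 CPM in knock-in cells after 0.5, 1, 3 and 8 h of TNF. The 3 h value was -0.45 ± 0.14 and the 8 h value 0.39 ± 0.14, both called by a narrow margin (edgeR, adjusted p = 0.04998 and 0.0417). The 3 h call held in 2 of 6 other settings and in 3 of 7 fits that left out another condition, with adjusted p up to 0.0585 and 0.0688. The 8 h call held in 3 of 6 and in 4 of 7, and it was lost with DESeq2 (adjusted p = 0.061), limma-voom (0.0547) and library totals (0.14, adjusted p = 0.432).

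Fcgr3 fell by 0.63 on the log2 scale at 8 h of TNF (SE 0.13, adjusted p = 0.00259, edgeR), from 450.4 to 299 CPM in wild-type and from 493 to 311 CPM in knock-in cells, with a larger fall under library totals (-0.88). Fcgr2b stood at 213 and 238 CPM at 8 h, -0.31 ± 0.13 from unstimulated cells and not called (adjusted p = 0.0855), but called lower with library totals (-0.56, adjusted p = 0.00635). Fcer1g stood at 587 and 654 CPM and was called higher (0.28 ± 0.08, adjusted p = 0.0175), a call lost with library totals (0.02, adjusted p = 0.823) and without the filter on low counts (0.26, adjusted p = 0.0947). At 8 h 3 of 5 members were called higher and 1 lower, against 17.1% and 14.8% of all genes (31.9% in either direction). At 3 h 2 were called lower, against 5.86% (13.5% in either direction). Over the 4 times together 3 of 5 were called, against 30.4%. At 0.5 and 1 h none was (edgeR, 0 of 5 also at an unadjusted p under 0.05, and 0 with DESeq2 and limma-voom), against 0.380% and 1.07%.

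LPS and TNF therefore separated from 3 h on, most for Fcgr1 and Fcgr4. At 3 h Fcgr1 was higher after LPS than after TNF by 3.12 ± 0.20 and Fcgr4 by 2.26 ± 0.14, the time at which both were low under TNF. At 8 h the differences were 3.08 ± 0.19 and 3.20 ± 0.14 (edgeR, adjusted p = 3.04e-09 for Fcgr4, which ranked 21 by p among the 11308 genes). For Fcgr1 this was 1608 against 231 CPM in wild-type and 3070 against 285 CPM in knock-in cells. For Fcgr4 it was 508 against 66.6 CPM and 1022 against 91.7 CPM.

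The other members differed between the stimuli mainly at 8 h. Fcgr3 was higher after LPS by 1.27 ± 0.13, Fcer1g by 1.15 ± 0.08 and Fcgr2b by 0.89 ± 0.13, all called by edgeR, and Fcgr2b was not called with library totals (0.19, adjusted p = 0.234). At 3 h Fcer1g alone of these was called (0.46 ± 0.08, adjusted p = 0.000574), and with library totals it was not (0.06, adjusted p = 0.534). Counts of members called higher after LPS were 0, 0, 3 and 5 of 5 at 0.5, 1, 3 and 8 h, against 0.0442%, 0.920%, 16.9% and 30.0% of all genes called higher, and 0.0442%, 1.20%, 31.3% and 58.4% in either direction. At 0.5 and 1 h no member was under an unadjusted p of 0.05 with edgeR, and none was called by DESeq2 or limma-voom. Averaged over the 4 matched times all 5 were called higher, against 23.7% of all genes (48.9% in either direction), with values of 1.56 ± 0.09 for Fcgr1 and 1.32 ± 0.07 for Fcgr4, and 0.33 to 0.40 for the others. Without the LPS 8 h pair the averaged difference was 0.14 for Fcgr2b and 0.06 for Fcgr3, and without the TNF 8 h pair it was 0.14, 0.06 and, for Fcer1g, 0.14; none of these was called. With library totals the average was called for Fcgr1 and Fcgr4 and for no other member, where 8229 of 11308 genes were called in either direction. The comparisons with LPS and with TNF share the unstimulated libraries.

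Knock-in macrophages held more Fcgr1 and Fcgr4 than wild-type macrophages in every condition, stimulated or not. Unstimulated cells held 87.1 against 47.3 CPM of Fcgr1 and 78.3 against 45.5 CPM of Fcgr4. Over the 9 pairs the knock-in to wild-type ratio of Fcgr1 ranged from 1.23 to 2.63 with a median of 1.91, and that of Fcgr4 from 1.38 to 2.26 with a median of 1.88. Each was higher in 9 of 9 pairs, also with library totals. The average difference was 0.92 ± 0.09 for Fcgr1 (adjusted p = 1.64e-05) and 0.88 ± 0.06 for Fcgr4 (adjusted p = 1.08e-06, edgeR).

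The ratio varied among conditions. For Fcgr1, which encodes the high-affinity receptor, it was largest at 3 h of LPS (189 against 496 CPM) and smallest at 8 h of TNF (231 and 285 CPM). Fcgr4 had its largest and smallest ratios in the same conditions, at 138 and 312 CPM and at 66.6 and 91.7 CPM. The effect after LPS was 1.09 ± 0.12 for Fcgr1 and 1.05 ± 0.08 for Fcgr4, and after TNF 0.75 ± 0.12 and 0.72 ± 0.08, each called. So 2 of 5 members were called after LPS, against 9.99% of all genes, and the same 2 after TNF, against 5.32%. Fcgr3 was not called after LPS by edgeR (0.30 ± 0.09, adjusted p = 0.0651), but was with limma-voom (adjusted p = 0.0484) and without the filter on low counts (0.0311). The effect after LPS minus that after TNF was 0.34 ± 0.17 for Fcgr1 and 0.32 ± 0.11 for Fcgr4, both with an adjusted p of 0.905 by edgeR, and Fcgr4 was the only member under an unadjusted p of 0.05. That test called 0 of all genes, with 578 under an unadjusted p of 0.05, 4 called by DESeq2 and 0 by limma-voom. Early after stimulation (0.5 and 1 h) the effect was 0.99 ± 0.15 for Fcgr1 and 0.93 ± 0.10 for Fcgr4, the 2 members called, against 6.94% of all genes. Late (3 and 8 h) it was 0.87 ± 0.14 and 0.86 ± 0.10, again the 2 members called, against 16.5%. Fcgr3 was at 0.28 ± 0.09 late (adjusted p = 0.0582) and was called with limma-voom (0.0493), without the filter (0.0217) and without TNF at 3 h (0.0370) or at 8 h (0.0375). The late effect minus the early one was -0.12 ± 0.20 for Fcgr1 and -0.07 ± 0.14 for Fcgr4 and called for no member by edgeR, DESeq2 or limma-voom, nor under an unadjusted p of 0.05, against 0.398% of all genes.

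Fcgr3 differed less between the genotypes. The knock-in library was higher in 9 of 9 pairs (7 of 9 with library totals), but in 8 of them the ratio lay between 1.04 and 1.18, and at 8 h of LPS it was 1.64 (565 against 929 CPM). The average of 0.19 ± 0.06 was called (edgeR, adjusted p = 0.0466), but not with library totals (0.11, adjusted p = 0.136), and it was called in 1 of the 9 fits that left out a condition (without the LPS 8 h pair, 0.13, adjusted p = 0.0117), with adjusted p up to 0.074 in the others. Fcgr2b was not called (0.12 ± 0.06, adjusted p = 0.179, 7 of 9 pairs higher). Its ratios included 0.827 at 3 h of LPS (363 against 300.0 CPM) and 1.25 before stimulation, and without the LPS 3 h pair it was called (0.17, adjusted p = 0.0295). Fcer1g was not called by edgeR (0.09 ± 0.04, adjusted p = 0.119, 8 of 9 pairs higher), and its ratios lay between 0.999 and 1.16. DESeq2 called it (0.09, adjusted p = 0.0399). In all 3 of 5 members were called higher in the knock-in and none lower, against 10.3% and 9.46% of all genes (19.7% in either direction).

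**Figure D3:**
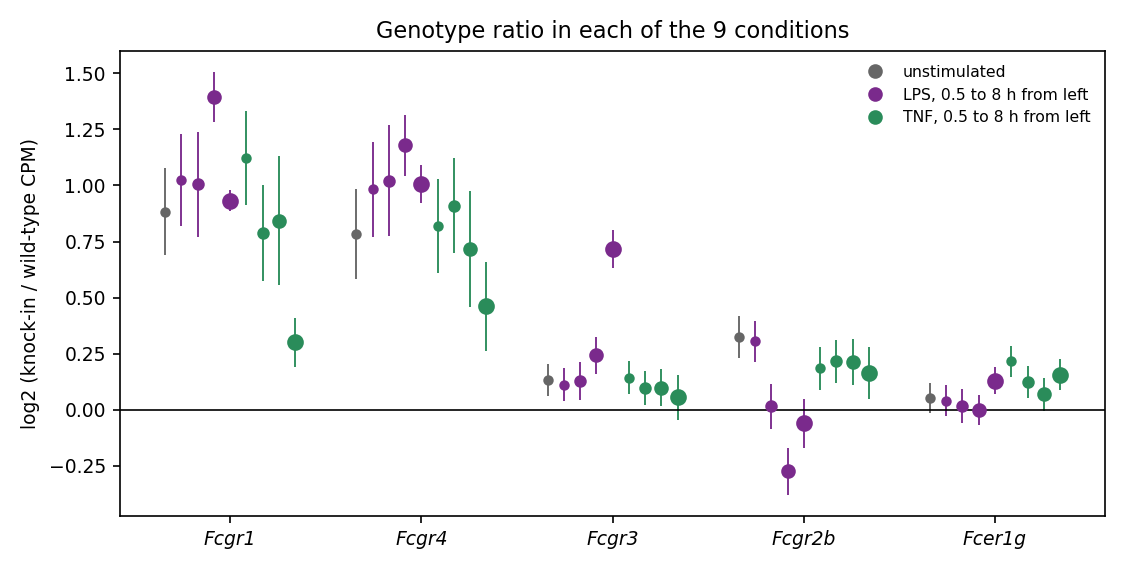
Log2 ratio of knock-in to wild-type CPM for each member in the 9 conditions (grey unstimulated, purple LPS, green TNF, times from left to right, larger points for later times), 1 library per genotype, with bars for the 95% counting interval only. Fcgr1 and Fcgr4 lie above 0 in all 9 conditions, Fcgr3 stands out at 8 h of LPS, and Fcgr2b lies on both sides of 0.

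Markers of other cells moved with genotype as well, where 9.46% of all genes were called lower and 10.3% higher. The summed level of the neutrophil list was lower in the knock-in in 9 of 9 pairs (129 to 276 CPM in wild-type, 62.4 to 192 CPM in knock-in cells), with 6 of 7 tested members called lower, and Ly6g, not tested, was at 0 in 8 of 18 libraries. The stromal list was also lower in 9 of 9 pairs (98.0 to 189 against 13.7 to 71.4 CPM), with 3 of 3 tested members called lower. The dendritic cell list was higher in the knock-in in 1 of 9 pairs, with 2 of 4 tested members called lower and none higher. The macrophage list was lower in 9 of 9 pairs, with 2 members called higher and 2 lower. The part of these lists in the genotype difference of Fcgr1 and Fcgr4 was not tested.

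Within a library the ratio of an activating receptor to Fcgr2b does not depend on how libraries are scaled. Per exon length, Fcgr1 stood at 0.426 of Fcgr2b in unstimulated wild-type and at 0.628 in knock-in cells, and at 8 h of LPS it was 8.45 and 16.8 times Fcgr2b. Fcgr4 went from 0.846 to 5.51 in wild-type and from 1.16 to 11.6 in knock-in cells. So both receptors exceeded the inhibitory receptor at 8 h of LPS, as they also did in raw counts. At 8 h of TNF Fcgr1 stood at 2.43 and 2.68 and Fcgr4 at 1.44 and 1.77 per exon length. Whether a ratio lies above 1 depends on the lengths used, 5790 bases for Fcgr2b and 1256 for Fcgr4. In raw counts Fcgr4 was below Fcgr2b at 8 h of TNF, at 370 against 1181 in wild-type and 463 against 1203 in knock-in cells. At 3 h of TNF Fcgr1 was at its lowest against Fcgr2b, 0.23 in wild-type and 0.355 in knock-in cells.

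Fcgr3 against Fcgr2b set the genotypes apart in the later LPS libraries. In wild-type cells the ratio went from 6.06 before LPS to 4.32 at 3 h and 4.43 at 8 h, while in knock-in cells it went from 5.296 to 6.18 and 7.60. In the other 7 conditions the log2 ratio was lower in the knock-in in 6 and higher at 1 h of LPS (4.95 against 4.57). The 50-base sequences that Fcgr2b and Fcgr3 share can blur this ratio, and by how much was not tested. On the log2 scale the knock-in minus wild-type difference over the 9 pairs was 0.80 ± 0.42 (SD) for Fcgr1, 0.76 ± 0.36 for Fcgr4 and 0.07 ± 0.35 for Fcgr3. Per exon length the 3 activating receptors summed were 7.33 times Fcgr2b in unstimulated wild-type and 7.09 times in knock-in cells. At 8 h of LPS they were 18.4 and 35.99 times Fcgr2b. These ratios are given without a test.

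**Figure D4:**
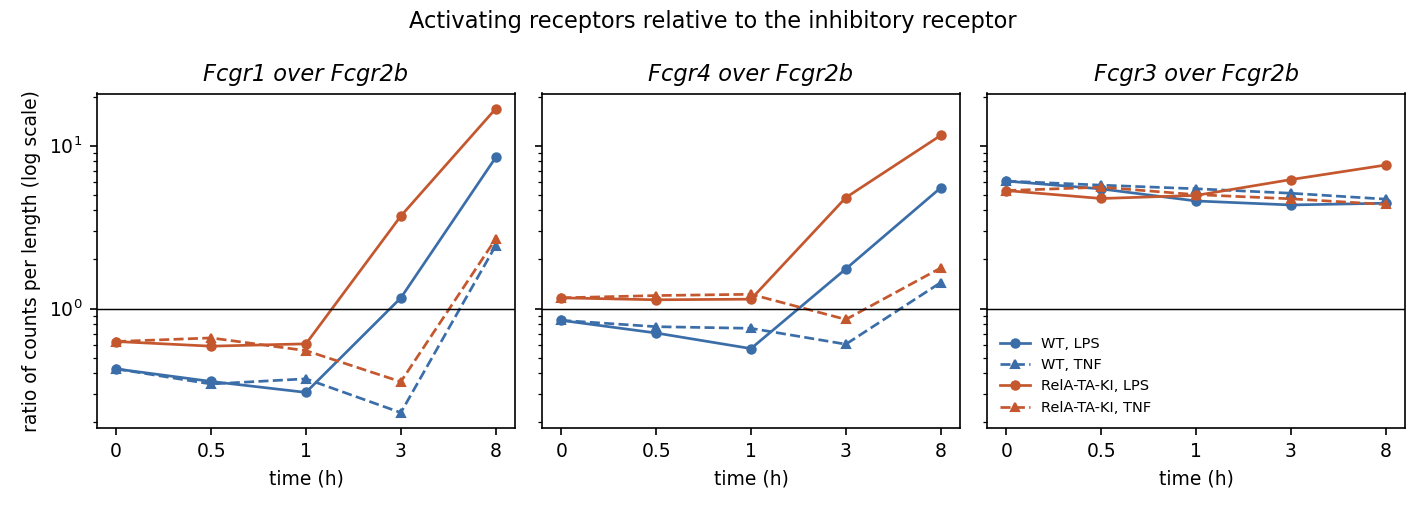
Ratio of Fcgr1, Fcgr4 and Fcgr3 to Fcgr2b in each library (counts per exon length, log axis, line at 1 for equal levels) against time after LPS (circles, solid lines) or TNF (triangles, dashed lines). At 8 h of LPS the knock-in library stands above the wild-type library in all panels, at 16.8 against 8.45 for Fcgr1, 11.6 against 5.51 for Fcgr4 and 7.60 against 4.43 for Fcgr3.

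At 8 h of LPS 33.8% of all genes were called higher and 67.7% were called in either direction, and with library totals 9394 of 11308 were called, which is the background for the lists of genes that act with the receptors. Of 19 genes for kinases, adaptors and other signalling proteins below the receptors, 14 rose and 1 fell at 8 h of LPS. Their median was 1.53, against -0.04 for all genes. Among those that rose were the kinase Src (5.92 ± 0.60) and the paracaspase Malt1 (3.79 ± 0.35). With library totals 10 of the 19 were called higher and 5 lower (median 0.57, against -0.99 for all genes). Of 11 inhibitory effectors 6 were called higher and 2 lower (median 0.38), but 3 higher and 6 lower with library totals (median -0.57). Inpp5d, which encodes SHIP1, the phosphatase recruited by the inhibitory receptor, fell (-2.01 ± 0.11), and Ptpn6, which encodes SHP-1, rose (2.29 ± 0.17). Of 6 genes of the phagocyte oxidase 5 rose and none fell (median 1.77), with Cybb, its catalytic subunit, at 3.77 ± 0.17, and with library totals 4 rose and 1 fell (median 0.81). At 8 h of TNF, where 17.1% of all genes were called higher and 14.8% lower, the counts were 11 and 1 of 19 (median 0.38), 4 and 2 of 11 (0.16) and 5 and 0 of 6 (0.66), with Cybb at 3.03 ± 0.17. With library totals they were 7 and 2, 1 and 2, and 3 and 0, with medians of 0.13, -0.09 and 0.41 against -0.25 for all genes. Under that scaling 4668 of 11308 genes were called at 8 h of TNF in either direction.

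Other receptors behaved unevenly. Of 11 other Fc receptor and Fc receptor-like genes 4 were tested. Trim21, the cytosolic antibody receptor, rose by 4.69 ± 0.35 at 8 h of LPS. The Fc receptor-like gene Fcrl1 (-1.33 ± 0.21) and Fcgrt, the neonatal Fc receptor (-0.35 ± 0.12), fell. A further list held ITAM adaptors and receptors that pair with them, but also Pirb, an inhibitory receptor, and Hcst, an adaptor without an ITAM. Of its 11 tested genes 4 were called higher and 2 lower at 8 h of LPS (median 0.14). Clec4e, which encodes the lectin Mincle, led (5.39 ± 0.82), and Pirb was also called higher (1.99 ± 0.10). With library totals 2 were called higher and 5 lower (median -0.82). At 8 h of TNF 7 of the list rose and none fell (median 0.65), or 6 and 1 with library totals. Clec4e rose by 6.12 ± 0.84, Clec5a by 1.72 ± 0.13 and Pirb by 1.31 ± 0.10. Of 16 regulators linked to Fc receptor genes 13 rose and 2 fell at 8 h of LPS (median 2.20), with Irf1 at 5.56 ± 1.36, Stat2 at 4.83 ± 0.19 and Cebpa at -4.74 ± 0.22, and 13 rose and 3 fell with library totals.

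Between the genotypes, where 10.3% of all genes were called higher and 9.46% lower, the direction differed among the lists. With library totals 2528 of 11308 genes were called in either direction. Of the kinases, adaptors and other signalling genes 3 were higher and 3 lower in the knock-in (median -0.04, against -0.00 for all genes). With library totals 1 of them was higher and 3 were lower. Fgr was at -1.49 ± 0.14 and Lat2 at 0.22 ± 0.05. Of the inhibitory effectors 3 were higher and none lower (3 and 2 with library totals), Dok2 by 0.58 ± 0.11, Inppl1, which encodes SHIP2, by 0.51 ± 0.11 and Dok1 by 0.39 ± 0.10. Of the 4 other Fc receptor and Fc receptor-like genes 3 were higher. The Fc receptor-like genes Fcrls and Fcrl1 were higher by 0.33 and 0.30, and Fcgrt by 0.29. With library totals Fcrl1 was not called (edgeR, adjusted p = 0.0735). Of the 11 tested genes in the list with the ITAM adaptors 3 were higher and 5 lower. Among the latter were Clec4e (-1.41 ± 0.34), Trem1 (-0.98 ± 0.18) and Clec5a (-0.70 ± 0.06). Of the 16 regulators 4 were higher and none lower (median 0.07), including Irf8 (0.49 ± 0.15, adjusted p = 0.0404) and Irf9 (0.28 ± 0.06, adjusted p = 0.00572, edgeR), both transcription factors of the interferon response. Neither was called with library totals (0.41 and 0.19, adjusted p = 0.0516 and 0.0693), where 1 regulator was called higher and 1 lower. In parts of the course regulators differed both ways. Early after stimulation 2 of 16 were called higher and 1 lower, against 6.94% of all genes in either direction. Irf1 was at -3.27 ± 0.41 (edgeR, adjusted p = 0.00296), Irf9 at 0.41 ± 0.08 and Stat2 at 0.34 ± 0.09. After LPS 1 was called higher and 1 lower, against 9.99% of all genes. These were Irf8 (0.85 ± 0.17) and Ifngr2, a subunit of the interferon gamma receptor (-0.37 ± 0.10, edgeR, adjusted p = 0.0322).

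The genes whose log2 CPM ran most like each member over the 18 libraries were picked among 9904 genes by Pearson correlation. For Fcgr1 they were Slfn4 (0.983), P4ha1 (0.982) and Dennd1b (0.979). For Fcgr4 they were Tnfrsf1a, a TNF receptor gene (0.979), Arpc2 (0.974) and Pi4k2a (0.974), and for Fcer1g Uba1 (0.992), Ociad1 (0.991) and Wars (0.989). The likeness was looser for Fcgr3 (Snx13 0.972, Oxct1 0.938, Ctla2b 0.914) and for Fcgr2b (Crebrf 0.908, Zdhhc2 0.905, Ms4a4a 0.895). These genes were picked on the same libraries, so their responses are no independent evidence.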

How the data were processed

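Sequencing was of poly(A) RNA with a stranded kit and 50-base single reads, per the labels' protocols. The authors deposited raw counts per gene, without normalization, with mm10 coordinates and summed exon lengths. The submitters' processing notes name cutadapt 1.12, STAR, featureCounts 1.5.0 and DESeq2. Whether counting used the strand, how multi-mapped reads were treated and which annotation release was used: not given in the sources used here. Of the 45706 identifiers, 563 had no symbol, and 24529 genes were at 0 in every library.

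edgeR 4.0.16 (R 4.3.3) was run on the counts after filterByExpr (minimum count 10, minimum total 15), using TMM factors and its robust quasi-likelihood test, and p-values were adjusted by Benjamini-Hochberg over all 11308 genes tested, with calls at 0.05. Genotype effects were fitted with condition as a block, and responses with genotype as a covariate (8 residual degrees of freedom, or 6 for effects by stimulus or phase). Each SE was obtained from the change and its F statistic. CPM values are TMM-scaled, and their log2 form adds a prior count of 0.5. Alternatives were DESeq2 size factors, library totals, 2 other filters, DESeq2 1.42.0, limma-voom (limma 3.58.1) and leaving out each condition with both libraries. Scripts were tested on simulated data. Genes named from a list were the 3 called with the largest change and a mean log2 CPM of at least 1. The members and lists were chosen with earlier results of these data known. Upstream windows are RefSeq's (GRCm38.p6), and all 5 members matched.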

Additional observations from a re-analysis of the deposited data

How the results depend on the processing

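No paired analysis was possible because the labels carry no replicate numbers and each genotype and condition had 1 library; matched conditions served as pairs instead. The genotype differences of Fcgr1 and Fcgr4 were called under all 15 alternatives, at 0.84 to 1.01 and 0.80 to 0.93. Their rises at 8 h of LPS were called in 7 of 7 fits that left out another condition and under 6 of 6 other settings, at 4.16 to 5.15 and 2.64 to 3.63. The number of members called between LPS and TNF over the matched times was 2 with library totals and 2 to 5 when a condition was left out, against 5. With library totals that comparison called 8229 of 11308 genes.

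With library totals the LPS value turned to -0.37 for Fcgr2b at 8 h (also its largest over the 4 times), and for Fcgr3 to -0.42 at 3 h (its largest) and -0.32 at 8 h. With a condition left out, the largest change over the 4 times ranged from -0.13 to 0.64 for Fcgr3 after LPS, from -0.84 to 2.04 for Fcgr1 after TNF and from -0.45 to 0.40 for Fcgr4 after TNF. The sign turned where the time of the largest change was itself left out (8 h, 8 h and 3 h). Of the members' values under alternatives, 38 lost a call, 15 gained one and 8 turned with a call on at least 1 side. The other 1459 stayed on their side of the threshold, among them values that were not called and changed sign, such as Fcgr2b at 3 h of LPS (0.26, or -0.27 with library totals) and Fcgr3 for LPS minus TNF at 3 h (0.31, or -0.09).

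Counts over all genes moved by more than 1.5 times in some fits. LPS minus TNF over the matched times called 5529 genes, but 2489 without LPS at 8 h and 1932 without TNF at 8 h. At 3 h it called 3539, or 6651 with library totals. The TNF response over the 4 times called 3434, or 1100 without TNF at 8 h. The genotype effect called 602 genes after TNF (285 to 912 with a condition left out), 1130 after LPS (581 without LPS at 3 h) and 785 early (368 to 454 without an early condition). Late minus early effects called 45, and 13 to 147 over the alternatives. The absolute direction of Fcgr2b and Fcgr3 after LPS rests on the scaling.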
